A study of Mus musculus with 12 samples.

Results

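The 6 mRNAs studied are known as substrates of IRE1-dependent decay: Bloc1s1, Ergic3, Hgsnat, Tapbp, Erp44 and Cd180. They were taken by symbol from gene count tables of mouse blood progenitors with and without the transcription factor XBP1, 6 genes of the 23362 used, because decay by IRE1 had been described for each of them elsewhere. The rule itself uses no measured value, but the 6 were chosen with earlier results of these data known. The study asked which genes depend on XBP1 at 2 stages of eosinophil development. It comprised 12 libraries of polyadenylated RNA, 3 in each of 4 groups, all from C57BL/6 mice. The first pair of groups were granulocyte-macrophage progenitors (GMP), marrow cells upstream of granulocytes and monocytes, from Xbp1-deficient mice (GMP KO) and wild type mice (GMP WT), sorted straight into Trizol. The other pair were GMP that had been sorted, transduced with GATA2, sorted again and cultured for 48 hours, also Xbp1-deficient (GATA2-GMP KO) or wild type (GATA2-GMP WT). The TruSeq kit was used for all libraries, after a SMARTer low-input amplification for GATA2-GMP alone, so that stage, transduction, culture and kit cannot be told apart. Which Xbp1 allele was used, in which cells it is deleted, and the age, sex or pooling of the mice are not in the labels. Nothing in them says that replicates came from separate animals, so the p-values measure the spread between these libraries, which may be technical.

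IRE1, encoded by Ern1, is an endoplasmic reticulum (ER) membrane protein that senses unfolded proteins and carries an RNase domain on its cytosolic side. Its best known act is to cut an intron out of Xbp1 mRNA, which lets the full transcription factor XBP1 be made. The same RNase also cuts other mRNAs at the ER, often in a small stem-loop like those of Xbp1, after which the pieces are degraded; this is called regulated IRE1-dependent decay, and Bloc1s1 is its most widely used readout. In liver, B-lineage and dendritic cells that lack XBP1, IRE1 is known to be more active. The proteins of the 6 mRNAs serve the secretory pathway and the lysosome: ERp44 holds back incompletely folded proteins in the early secretory pathway, tapasin (Tapbp) loads peptides on MHC class I, ERGIC3 cycles between ER and Golgi as a cargo receptor, HGSNAT acetylates heparan sulfate in lysosomes, BLOS1 (Bloc1s1) is part of the BLOC-1 and BORC complexes of endosomes and lysosomes, and CD180 is a cell surface relative of the Toll-like receptors.

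The sites IRE1 is known to cut in Xbp1, and the sites most like them in Bloc1s1, Cd180 and Hgsnat, are shown because they are the sequence feature that decay substrates are described by. A site was taken as the 7 bases CNGCAGN (the loop) between 2 arms that pair, with G-U pairs allowed. Sequence was read 5′ to 3′ from the mm9 genome, for the substrates through the GENCODE transcript with the longest coding sequence. For Xbp1 that transcript (1116 coding bases) has the spliced frame, and all coding transcripts of Xbp1 were searched. The Xbp1 sites shown are from the transcript with the unspliced frame (804 coding bases). The loop is in capitals, with T written for U.
Xbp1, first site: ctgctgagtCCGCAGCactcagact
Xbp1, second site: tgtgcacctCTGCAGCaggtgcagg
Bloc1s1: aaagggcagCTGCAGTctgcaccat
Cd180: atcttgtccCAGCAGAggaccatta
Hgsnat: cctggtgtcCTGCAGCggttgggag
The Xbp1 sites, at chr11:5424270-5424294 and chr11:5424296-5424320 on the plus strand, lie in coding exon 4 of the transcript with the unspliced reading frame and had 6 and 7 base pairs beside the loop. The transcript with the spliced frame held neither. The Bloc1s1 site (chr10:128357058-128357082, minus strand, coding part of exon 4) and the Cd180 site (chr13:103496220-103496244, plus strand, coding part of exon 3) each had 4 base pairs. The Hgsnat site (chr8:27066214-27066238, minus strand, coding, exon 11) had 3, and no site in Ergic3, Tapbp or Erp44 reached 4. A site with at least 4 base pairs was found in 10.5% of 22594 transcripts. Longer transcripts hold more of them: among transcripts of about the length of Bloc1s1 (550 bases) the share was 1.84%, and among those of about the length of Cd180 (2650 bases) it was 11.3%. The 6 letters CTGCAG alone were in 75.7% of transcripts. These matches describe the letters and do not show a cut; the search saw only this loop and perfect pairing next to it.

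Libraries held 8219366 (GMP KO 3) to 33640911 counts in genes (GMP KO 2). Levels below are CPM, the reads of a gene relative to the library size as scaled by TMM over all 12 libraries, where 1 CPM stood for 11.2 to 43.5 reads. GATA2-GMP WT 3 stood apart: it had 40.3% of its records in reads with more than 1 alignment, against 48.1 to 55.0% in the other GATA2-GMP libraries, and results are given with and without it below. Xbp1 itself, by which the genotype labels can be checked, was at 89.8, 55.9 and 56.8 CPM in GMP KO 1 to 3, against 131, 133 and 153 CPM in GMP WT 1 to 3. In GATA2-GMP KO it was at 99.9, 122 and 128 CPM, against 381, 269 and 197 CPM in GATA2-GMP WT. Every KO library was below every WT library of its stage, and the remaining reads cannot be placed, since counts per symbol do not show exons and the allele is not given. The summed level of 8 GMP markers (Mpo, Elane and others) was 2266 to 2646 CPM in GATA2-GMP KO and 3100 to 3741 CPM in GATA2-GMP WT, and 22029 to 26160 CPM in GMP KO and 25673 to 28256 CPM in GMP WT. In bulk RNA, fewer cells that carry a transcript and less of it in each cell cannot be told apart.

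All 6 decay substrates fell in GMP without XBP1. Bloc1s1 was 2.98-fold and Erp44 2.62-fold lower in GMP KO than in GMP WT, Tapbp, Hgsnat and Ergic3 were 1.96-, 1.75- and 1.63-fold lower, and Cd180 was 1.44-fold lower. In each of the 6, every GMP KO library was below every GMP WT library. A gene was called by edgeR's quasi-likelihood test at a Benjamini-Hochberg adjusted p under 0.05 over all genes tested; 2.52% of 12002 genes were called lower, and 8.09% had all KO libraries below all WT libraries. Because the 6 were chosen with earlier results of these data known, these shares give scale and are not a test of the set. Scaling by library totals, without TMM, changed the split of all calls to 254 lower and 144 higher, against 302 lower and 79 higher, and still called the 6 substrates lower.

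Among the proteins of the ER lumen, Erp44 (chr4:48206195-48292430, minus strand) was at 32.3, 33.6 and 34.8 CPM in GMP KO 1 to 3, against 78.9, 79.1 and 102 CPM in GMP WT 1 to 3. The KO libraries lay close together, at well under the lowest WT library. Its log2 fold change of -1.39 (SE 0.11, edgeR adjusted p = 0.000145) was the 21st lowest of all genes tested.

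Tapbp (chr17:34052844-34066235, plus strand) was at 55.1, 59.6 and 52.4 CPM in GMP KO, against 93.5, 102 and 130 CPM in GMP WT. GMP WT 3 was the highest of the WT libraries, as for the other substrates. On the log2 scale the change was -0.97 (SE 0.12, edgeR adjusted p = 0.00234), and the adjusted p stayed under the threshold without any 1 library, at up to 0.0449.

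The cargo receptor Ergic3 (chr2:155833781-155844015, plus strand) was at 47.1, 46.7 and 49.4 CPM in GMP KO, against 74.0, 72.4 and 83.7 CPM in GMP WT. Its libraries were the tightest of the 6 substrates in GMP KO relative to their level, with a mean of 47.7 ± 1.44 CPM (SD, n = 3). Ergic3 thus changed by -0.70 on the log2 scale (SE 0.075, edgeR adjusted p = 0.000151).

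Of the lysosome and endosome genes, Bloc1s1 (chr10:128354938-128361091, minus strand) was at 2.89, 3.88 and 3.14 CPM in GMP KO, against 8.03, 10.2 and 11.4 CPM in GMP WT. The GMP KO libraries held 285 of its reads together and the GMP WT libraries 673, so the levels were low but well above single reads. The log2 fold change of -1.58 (SE 0.17, edgeR adjusted p = 0.000151) was the 11th lowest of all genes tested. Hgsnat (chr8:27054931-27087216, minus strand) was at 11.3, 12.6 and 13.3 CPM in GMP KO, against 19.9, 21.2 and 22.9 CPM in GMP WT. Both groups were tight and did not overlap. The log2 fold change was -0.81 (SE 0.098, edgeR adjusted p = 0.000423).

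The surface receptor Cd180 (chr13:103483638-103529709, plus strand) was at 12.3, 14.8 and 13.4 CPM in GMP KO, against 18.6, 18.8 and 20.5 CPM in GMP WT. The gap between the groups was narrower than for the other substrates. Cd180 changed by -0.53 on the log2 scale (SE 0.093, edgeR adjusted p = 0.0067).

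**Figure D1:**
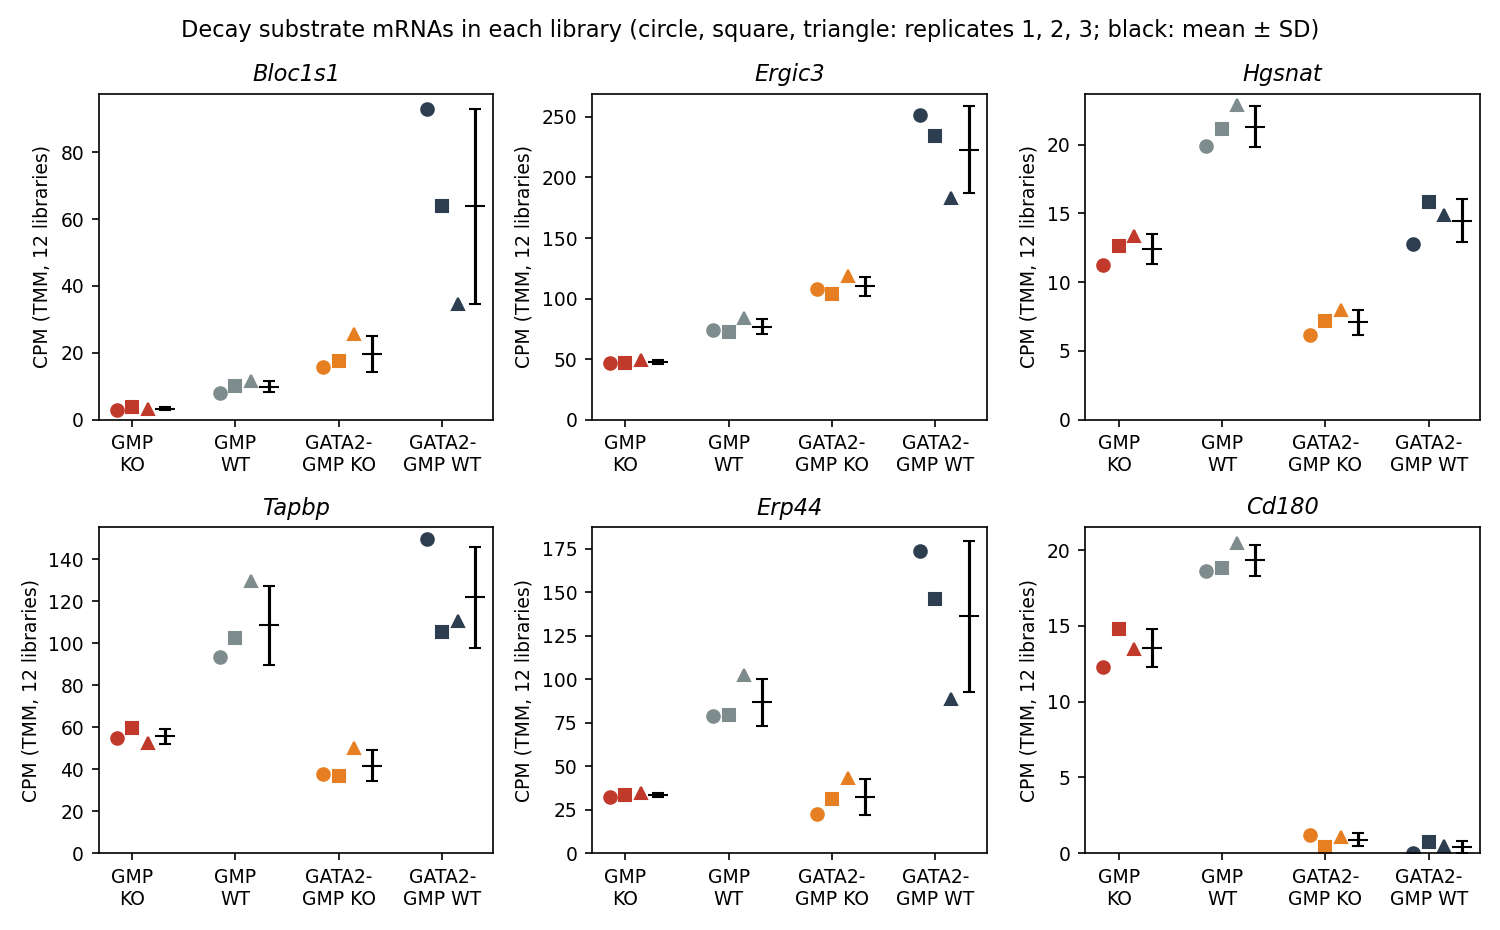
Level of each substrate mRNA in each of the 12 libraries, in CPM on TMM-scaled library sizes (y axis from 0), by group on the x axis; circles, squares and triangles are replicates 1, 2 and 3, and black bars are mean ± SD (n = 3). KO points lie below all WT points of the same stage in every panel but Cd180 in GATA2-GMP, where all 6 libraries are at 1.23 CPM or less.

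The median log2 fold change of the 6 was -0.89, beside 0.0058 over all genes tested in GMP. Cd180, the least changed, had 2.72% of all genes below it, and 0.575% of all genes fell by more than 2-fold, as Bloc1s1 and Erp44 did. These calls held for all 6 under other scalings, other filters, DESeq2, replicate number as a block and each library left out. They were lost when all 12 libraries shared 1 estimate of the spread: the adjusted p then ran from 0.0834 (Erp44) to 1 (Cd180), and 17 genes in all were called against 381. The SD of the log2 fold changes of all genes was 0.63 in GATA2-GMP and 0.27 in GMP. With the block, 964 genes were called in all, without GMP KO 3 209 and without GMP WT 3 237.

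**Figure D2:**
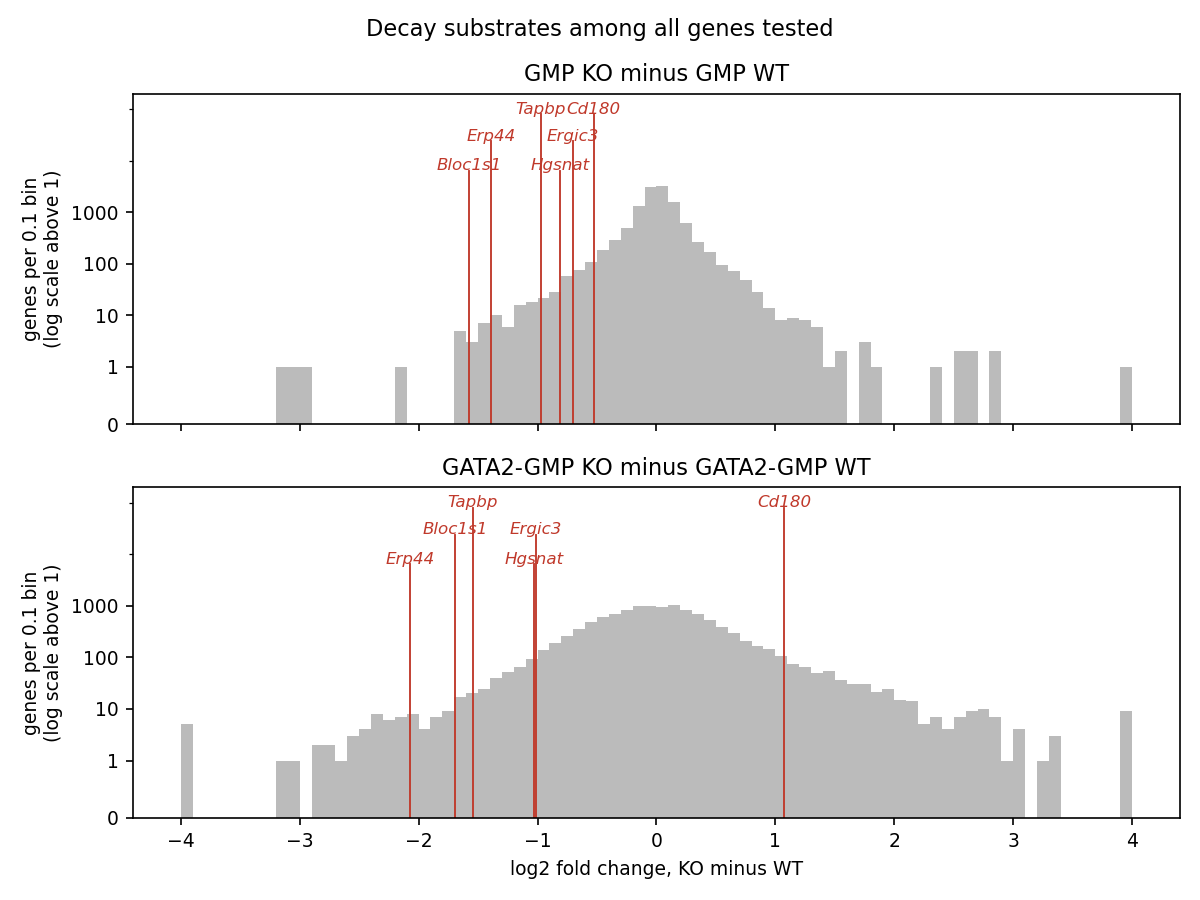
Number of genes per 0.1-wide bin of log2 fold change (y axis, log scale above 1; the end bins hold all genes beyond them), KO minus WT, in GMP (top) and GATA2-GMP (bottom); red lines mark the 6 substrates. In GMP all 6 lie at -0.53 or lower, and in GATA2-GMP 5 lie at -1.01 or lower, with Cd180 at 1.07.

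In GATA2-GMP, Erp44 and Tapbp fell in the KO cells, by 4.20-fold and 2.92-fold. Bloc1s1, Hgsnat and Ergic3 had fold changes of 3.24, 2.04 and 2.02 toward lower levels in GATA2-GMP KO and did not pass the threshold. In these 5 every KO library was below every WT library, and 12.3% of 11699 genes were arranged in that way. Of all genes tested 0.274% were called lower, so 2 of 6 stands beside a small number of calls (32 lower, 12 higher; 20 lower and 17 higher with library totals, which put the median of all genes at 0.18). Both calls rested on the full set of libraries: without any 1 of the 5 libraries other than GATA2-GMP WT 3, no substrate was called, and without GATA2-GMP WT 3 there were 4 calls, namely Bloc1s1, Ergic3, Tapbp and Erp44.

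Erp44 was at 22.7, 31.0 and 43.3 CPM in GATA2-GMP KO 1 to 3, against 174, 146 and 88.4 CPM in GATA2-GMP WT 1 to 3. The third library of each group was nearest to the other group. KO minus WT was -2.07 on the log2 scale (SE 0.33, edgeR adjusted p = 0.0437; 0.00397 without GATA2-GMP WT 3, and up to 0.258 without another library).

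Tapbp was at 37.9, 36.9 and 50.2 CPM in GATA2-GMP KO, against 150, 105 and 111 CPM in GATA2-GMP WT. Its lowest WT library was more than 2-fold above its highest KO library. On the log2 scale KO minus WT was -1.54 (SE 0.24, edgeR adjusted p = 0.0425; 0.0124 without GATA2-GMP WT 3, and up to 0.281 without another library).

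Bloc1s1 was at 15.6, 17.7 and 25.7 CPM in GATA2-GMP KO, against 93.1, 63.9 and 34.6 CPM in GATA2-GMP WT. GATA2-GMP WT 3 was closer to GATA2-GMP KO 3 than to either other WT library. The log2 fold change was -1.70 (SE 0.37, edgeR adjusted p = 0.0974); without GATA2-GMP WT 3 the adjusted p was 0.00973.

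Ergic3 was at 108, 104 and 119 CPM in GATA2-GMP KO, against 252, 234 and 183 CPM in GATA2-GMP WT, with the same library lowest among WT. The log2 fold change was -1.01 (SE 0.21, edgeR adjusted p = 0.0895; 0.0181 without GATA2-GMP WT 3). Hgsnat was at 6.13, 7.17 and 7.96 CPM in GATA2-GMP KO, against 12.8, 15.8 and 14.9 CPM in GATA2-GMP WT. For Hgsnat GATA2-GMP WT 3 was the middle WT library, and the gene was not called with or without it. Its log2 fold change was -1.03 (SE 0.26, edgeR adjusted p = 0.129).

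Cd180 was near the floor in GATA2-GMP. It had 21, 6 and 14 reads in GATA2-GMP KO, 41 in all, against 0, 12 and 8 reads in GATA2-GMP WT, 20 in all. The groups overlapped, and the log2 fold change of 1.07 (95% interval -1.02 to 3.17, edgeR adjusted p = 0.645) was not distinguishable from 0 at this depth.

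Markers of eosinophils moved with genotype in GATA2-GMP. The summed level of 8 eosinophil markers was 55749 to 67782 CPM in GATA2-GMP KO and 134636 to 205032 CPM in GATA2-GMP WT. All 8 had negative log2 fold changes and 2, the ribonuclease genes Ear1 and Ear2, were called lower, while DESeq2 called 7 lower. Both calls were lost without GATA2-GMP KO 1 or without GATA2-GMP KO 3 (edgeR adjusted p up to 0.0951), and 0 to 7 of the 8 were called with 1 library left out. Monocyte, macrophage and dendritic cell markers summed to 630 to 755 CPM in GATA2-GMP KO and 399 to 901 CPM in GATA2-GMP WT. None of the 6 tested in that list was called by edgeR, 2 higher had an unadjusted p under 0.05 and DESeq2 called 2 higher. Cd14 (log2 fold change 0.72), Itgax (0.23), Csf1r (0.049) and Emr1 (-0.023) were not called by edgeR with or without any 1 library. The antigen presentation genes Cd74 and H2-Aa had every GATA2-GMP KO library above every GATA2-GMP WT library. The share of all genes arranged in this way is not given here, and 12.3% had the opposite arrangement. Cd74 was at 130, 129 and 158 CPM in GATA2-GMP KO, against 18.6, 53.8 and 59.3 CPM in GATA2-GMP WT (log2 fold change 1.66, edgeR adjusted p = 0.121; 0.0278 without GATA2-GMP WT 3, and 0.00121 with DESeq2). H2-Aa was at 20.9, 16.6 and 28.5 CPM in GATA2-GMP KO, against 6.50, 8.97 and 7.34 CPM in GATA2-GMP WT (log2 fold change 1.53, edgeR adjusted p = 0.0689; 0.0357 without GATA2-GMP WT 3, and 0.000301 with DESeq2). Mast cell and basophil markers summed to 5555 to 11586 CPM in GATA2-GMP KO and 3419 to 11047 CPM in GATA2-GMP WT, with none of 5 called by edgeR or DESeq2 and 1 higher at an unadjusted p under 0.05.

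Some cell type markers moved with genotype in GMP as well. Of 8 GMP markers 1 was called lower, the granule protease Elane (log2 fold change -1.18, edgeR adjusted p = 1.01e-05), where 2.52% of all genes were. With replicate number as a block 3 were, where 964 genes were called in all. The block added Prtn3 (-0.31, edgeR adjusted p = 0.0011, and 0.108 without the block) and Cd34 (-0.28, adjusted p = 0.00223, and 0.257 without the block). The median of the 8 was -0.095. Cebpa (0.14), Ctsg (0.041) and Kit (0.034) lay on the other side and were not called. At an unadjusted p under 0.05, 3 of the 8 were lower and 1 higher. DESeq2 called 3 lower and 0 higher, among them Prtn3 (DESeq2 adjusted p = 0.00638) and Cd34 (0.0414). The eosinophil markers summed to 317 to 641 CPM in GMP KO and 76.7 to 270 CPM in GMP WT. Without the block none of the 6 tested was called by edgeR, 2 higher had an unadjusted p under 0.05 and DESeq2 called 1 higher. With it Il5ra (1.23, adjusted p = 0.00225, and 0.115 without the block) and Prg3 (1.21, adjusted p = 0.00379, and 0.466 without the block) were called higher. Mast cell and basophil markers summed to 90.2 to 107 CPM in GMP KO and 100 to 122 CPM in GMP WT. Among them Fcer1a, a chain of the IgE receptor, had 61, 72 and 15 reads in GMP KO, against 10, 13 and 19 reads in GMP WT. In CPM its libraries did not overlap, and it was called higher (log2 fold change 1.49, SE 0.32, edgeR adjusted p = 0.0224; 0.00427 with the replicate block, and lost without GMP KO 1, GMP WT 1 or GMP WT 2 at an adjusted p of up to 0.106). With the block the basophil protease Mcpt8 was called lower (-0.29, adjusted p = 0.0105, and 0.0979 without the block). Monocyte, macrophage and dendritic cell markers summed to 185 to 287 CPM in GMP KO and 199 to 246 CPM in GMP WT. None of the 6 tested was called by edgeR without the block, 2 higher had an unadjusted p under 0.05 and DESeq2 called 1 higher. With the block Cd14 was called higher (0.54, edgeR adjusted p = 0.00259, and 0.0533 without the block). The 5 B cell markers summed to 32.6 to 52.2 CPM in GATA2-GMP KO and 36.7 to 60.1 CPM in GATA2-GMP WT, and to 30.5 to 32.3 CPM in GMP KO and 27.9 to 30.8 CPM in GMP WT, with Pax5 at 0 in both GATA2-GMP groups and Ms4a1, Ebf1 and Pax5 at 0 in both GMP groups. The part of cell composition in the substrate results was not tested.

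Whether the genotype effect on a substrate differed between the stages was tested as an interaction over all 12 libraries, and no substrate was called (edgeR, 0 of 6; 2 of 6 at an unadjusted p under 0.05, Tapbp and Cd180; 0 of 6 with DESeq2). Of 12803 genes 0.0859% were called. The difference, the KO effect in GATA2-GMP minus that in GMP, was -0.13 for Bloc1s1 on the log2 scale (95% interval -1.11 to 0.85). It was -0.33 for Ergic3 (-0.77 to 0.10), -0.25 for Hgsnat (-0.77 to 0.27), -0.59 for Tapbp (-1.15 to -0.030) and -0.70 for Erp44 (-1.48 to 0.077). Cd180 went the other way, at 1.56 (0.025 to 3.09), on the few reads it had in GATA2-GMP. The intervals are wide, so the test does not show that the stages respond alike.

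**Figure D3:**
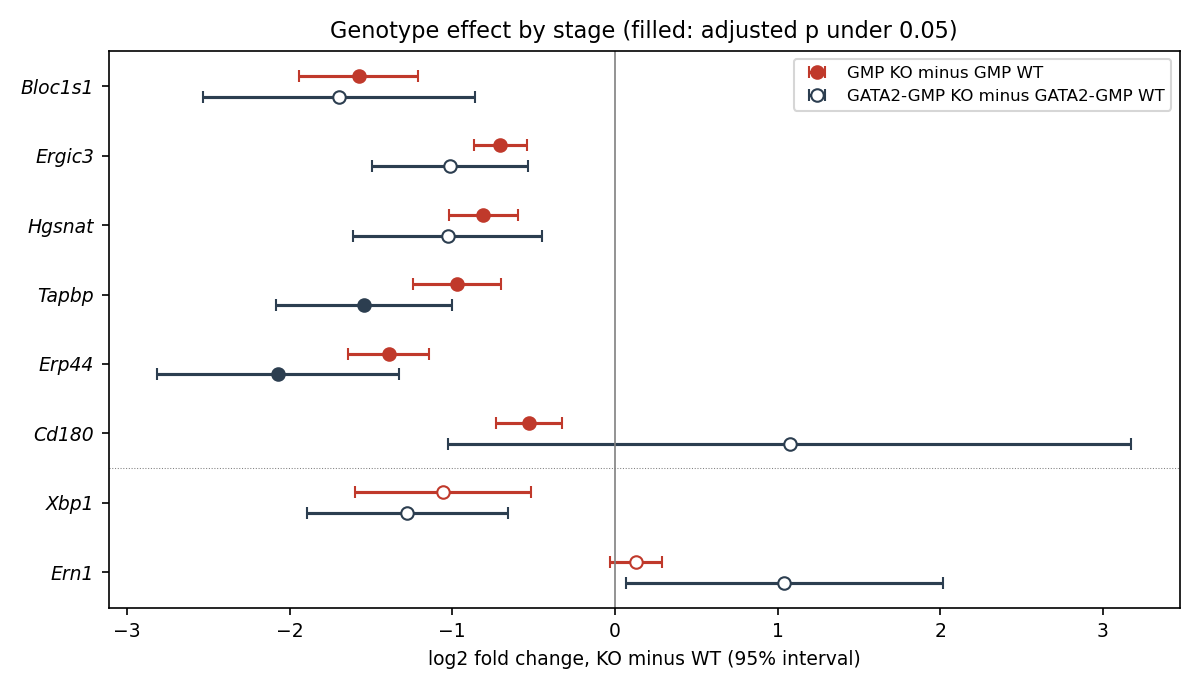
Log2 fold change, KO minus WT, of each substrate and of Xbp1 and Ern1 (x axis) in GMP (red, upper point) and GATA2-GMP (dark blue, lower point), with 95% intervals; filled points have an adjusted p under 0.05. The intervals of the 2 stages overlap for all 6 substrates, and those of GATA2-GMP are the wider ones.

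Ern1, the gene of the RNase, was not called by genotype in either stage. It averaged 217 ± 26.0 CPM in GMP KO and 197 ± 7.98 CPM in GMP WT (SD, n = 3 each), which put its log2 fold change at 0.13 (SE 0.072, edgeR adjusted p = 0.453). In GATA2-GMP it averaged 10.3 ± 1.59 CPM in KO and 4.99 ± 3.22 CPM in WT, and the log2 fold change was 1.04 (SE 0.43, edgeR adjusted p = 0.305; 0.0314 without GATA2-GMP WT 3). Counts of Ern1 mRNA do not measure the activity of the protein. Xbp1, whose mRNA IRE1 cuts as well, had log2 fold changes of -1.06 in GMP (SE 0.21, edgeR adjusted p = 0.0919) and -1.28 in GATA2-GMP (SE 0.27, adjusted p = 0.0959), and neither passed. Leaving out GMP KO 1 brought a call of Xbp1 in GMP (adjusted p = 5.2e-07), and leaving out GATA2-GMP WT 3 brought it in GATA2-GMP (adjusted p = 0.0131). DESeq2 also called Xbp1 lower in GATA2-GMP (DESeq2 adjusted p = 0.00185). Of 13 alternatives run in each stage, 4 called Xbp1 in GATA2-GMP and 2 in GMP.

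Of a list of 10 other mRNAs described as IRE1 decay substrates in other cells, 9 were in the tables and 4 had enough reads to test in GMP. Itgb2, the beta chain of leukocyte integrins, was called lower there (1 of 4). It was at 14.1, 14.1 and 14.4 CPM in GMP KO, against 21.5, 25.4 and 31.7 CPM in GMP WT, with no overlap. Its log2 fold change was -0.90 (SE 0.13, edgeR adjusted p = 0.00421), close to that of Tapbp. Pdgfrb was at -0.52 (adjusted p = 0.272), and was the second call with replicate number as a block (adjusted p = 0.019), which gave 2 of 4. In GATA2-GMP none of 4 was called by edgeR, 2 had an unadjusted p under 0.05 (Itgb2 lower, Pmp22 higher) and DESeq2 called 1 lower and 1 higher. Itgb2 had a log2 fold change of -2.16 there (adjusted p = 0.0749; 0.0189 to 0.344 with 1 library left out, and under the threshold without GATA2-GMP WT 2 or WT 3). Pmp22, a peripheral myelin protein gene, had 111, 32 and 127 reads in GATA2-GMP KO, against 14, 0 and 12 reads in GATA2-GMP WT. It was the listed substrate with the largest difference toward higher levels in KO, and it did not pass (log2 fold change 3.36, edgeR adjusted p = 0.153).

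Genes of the XBP1 and IRE1 branch itself, Xbp1 and Ern1 among them, leaned lower in GMP and went both ways in GATA2-GMP. Of 9 tested in GMP, 7 had negative log2 fold changes, with a median of -0.63. In 6 of the 9 every GMP KO library was below every GMP WT library, as in 8.09% of all genes. At an unadjusted p under 0.05, 6 were lower and 0 higher, and DESeq2 called 5 of 10 lower and 0 higher. In GMP 3 of 9 tested were called lower, the translocon gene Sec61a1 (log2 fold change -0.76), its partner Sec63 (-0.47) and the disulfide isomerase Pdia6 (-0.80), and none higher. The blocked fit called 5, adding the ER chaperone Hspa5 (-0.63, edgeR adjusted p = 0.283 without the block and 5.39e-07 with it) and the co-chaperone Dnajb9 (-1.14, adjusted p = 0.159 without and 0.00123 with it). Both were also called without GMP WT 2, with an adjusted p of 0.00865 for Hspa5 and 7e-05 for Dnajb9. None of the 9 was called by edgeR in GATA2-GMP, 5 had an unadjusted p under 0.05 (3 lower, 2 higher), and DESeq2 called 3 lower and 1 higher. Dnajb9 had a log2 fold change of -1.43 there (adjusted p = 0.0728), and Hspa5 of 0.88 (adjusted p = 0.177), toward higher levels in KO.

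Each substrate was then set beside genes whose proteins work with its own. For Bloc1s1 these were 6 tested subunits of BLOC-1, and in GMP none was called by edgeR, none had an unadjusted p under 0.05, and DESeq2 called none. Their log2 fold changes ran from -0.12 (Bloc1s4) to 0.15 (Bloc1s3), with a median of 0.022, beside -1.58 for Bloc1s1. In GATA2-GMP none of the 6 was called, none had an unadjusted p under 0.05 and DESeq2 called none, with values from -0.79 (Bloc1s3) to 0.69 (Snapin) and a median of -0.43, beside -1.70 for Bloc1s1.

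For Ergic3, 5 of 8 genes of ER to Golgi cargo transport were called lower in GMP and none higher. They were the cargo receptors Surf4 (log2 fold change -0.73), Lman1 (-0.59) and Lman2 (-0.38) and the p24 proteins Tmed2 (-0.49) and Tmed10 (-0.35). With the replicate block 7 of 8 were called lower, the added genes being Mcfd2, the partner of LMAN1 (-0.24, edgeR adjusted p = 0.0524, and 0.00658 with the block), and Ergic1. Without the block the relatives that share the name did not pass, with Ergic1 at -0.17 (edgeR adjusted p = 0.252; 0.0455 with the block) and Ergic2 at -0.093 (adjusted p = 0.528), beside -0.70 for Ergic3. In GATA2-GMP 1 of 8 was called lower, Tmed2 (-1.62, adjusted p = 0.0428), and like Erp44 and Tapbp it was lost without any library other than GATA2-GMP WT 3 (adjusted p up to 0.258). Ergic1 was at -0.42 and Ergic2 at -0.34 there, neither of them called.

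The enzymes that break down heparan sulfate together with HGSNAT were not called in GMP (edgeR, 0 of 8; 1 lower and 2 higher at an unadjusted p under 0.05; 1 higher with DESeq2), with a median of 0.15 beside -0.81 for Hgsnat. With replicate number as a block 2 were called higher, the glucuronidase Gusb (log2 fold change 0.21, adjusted p = 0.00691, and 0.0558 without the block) and the heparanase Hpse (0.28, adjusted p = 0.00736, and 0.515 without the block; 0.0297 without GMP KO 1). In GATA2-GMP none of 8 was called by edgeR or by DESeq2, and 1 lower and 1 higher had an unadjusted p under 0.05.

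For Tapbp, 3 of 10 genes of MHC class I loading were called lower in GMP and none higher: the isomerase Pdia3 that is bound to tapasin (log2 fold change -0.66), the class I light chain B2m (-0.44) and the lectin chaperone Canx (-0.43). The peptide transporter genes Tap1 (0.12) and Tap2 (0.065), the tapasin relative Tapbpl (-0.040) and the class I heavy chain H2-K1 (-0.0028) were not called. None of the 10 was called by edgeR in GATA2-GMP, 2 lower and 2 higher had an unadjusted p under 0.05, and DESeq2 called 1 lower and 1 higher. Tapbpl was at 20.3, 16.2 and 15.8 CPM in GATA2-GMP KO, against 5.96, 8.35 and 7.93 CPM in GATA2-GMP WT. It lay on the other side from Tapbp, with all KO libraries above all WT libraries. It did not pass (log2 fold change 1.24, SE 0.27, edgeR adjusted p = 0.0955, and 0.0436 without GATA2-GMP WT 3). For this arrangement the share of all genes is not given here, while 12.3% had the opposite one.

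Of 7 genes of oxidative folding and known ERp44 clients, 2 were called lower in GMP: the disulfide isomerase P4hb (log2 fold change -1.14, edgeR adjusted p = 5.54e-05) and the oxidase Ero1lb (-0.50, adjusted p = 0.00261). The oxidase Ero1l was at 0.040 (adjusted p = 0.837). Among the same 7 in GATA2-GMP none was called by edgeR, 3 lower and 2 higher had an unadjusted p under 0.05, and DESeq2 called 2 lower and 1 higher. The oxidases pointed in opposite directions there, with Ero1l at 1.09 (adjusted p = 0.101; 0.0436 without GATA2-GMP WT 3) and Ero1lb at -1.08 (adjusted p = 0.134).

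For Cd180, none of 6 genes of its complex and of its Toll-like relatives was called in GMP by edgeR, 2 higher had an unadjusted p under 0.05, and DESeq2 called 1 higher, the LPS co-receptor Cd14. Cd14 had a log2 fold change of 0.54 (edgeR adjusted p = 0.0533; 0.00259 with the replicate block, 0.0376 without GMP WT 1). Ly86, which encodes the MD-1 protein that CD180 needs at the cell surface, was at 51.3 ± 15.8 CPM in GMP KO and 52.6 ± 5.70 CPM in GMP WT (SD, n = 3 each), with a log2 fold change of -0.050 (adjusted p = 0.955). In GATA2-GMP none of 5 was called by edgeR, while 2 higher, Tlr4 and Tlr2, had an unadjusted p under 0.05 and DESeq2 called 2 higher.

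**Figure D4:**
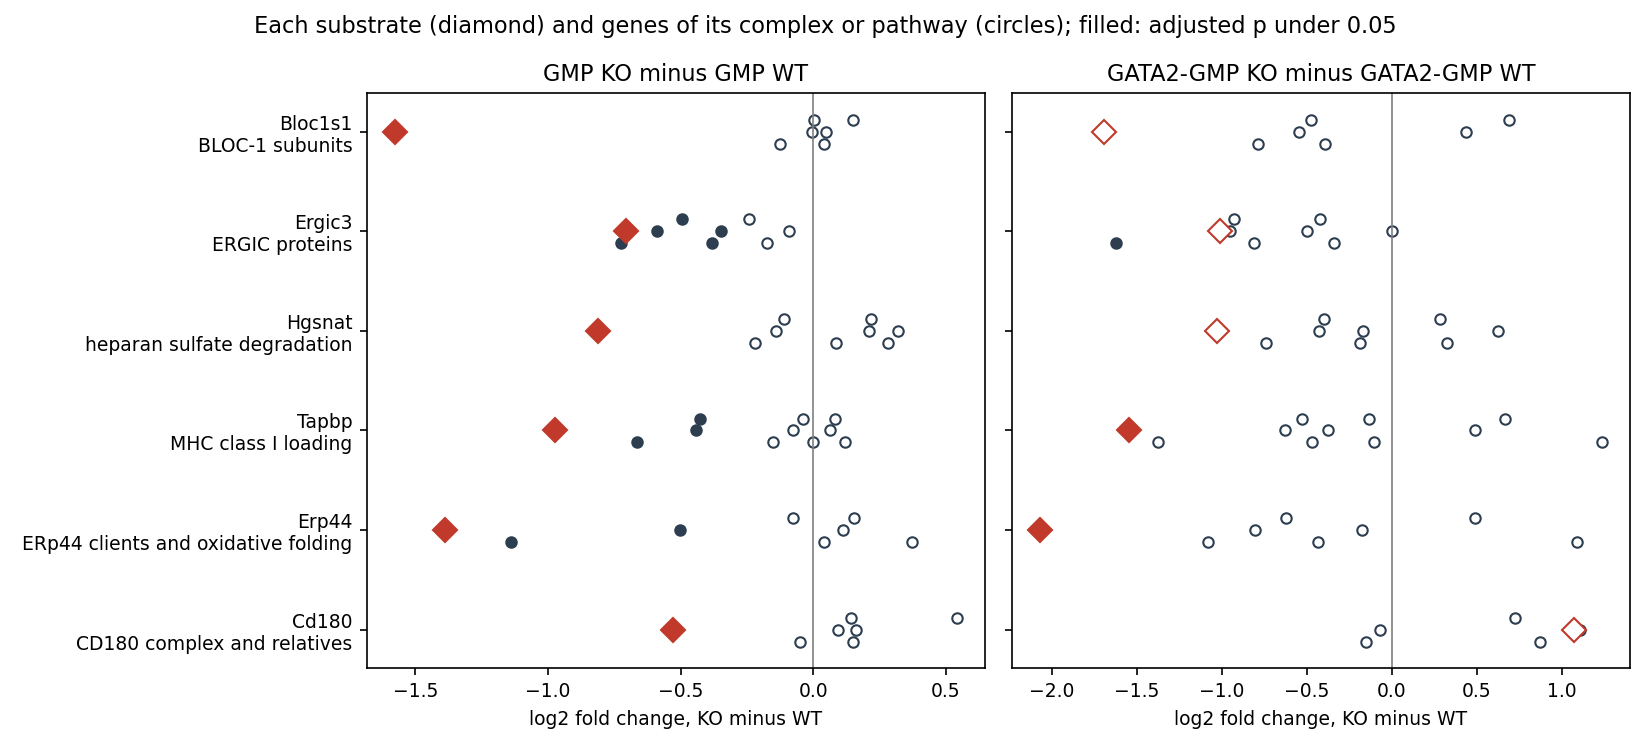
Log2 fold change, KO minus WT (x axis), of each substrate (red diamond) and of the genes of its complex or pathway (circles), in GMP (left) and GATA2-GMP (right); filled symbols have an adjusted p under 0.05, and the x axes differ. In GMP the Bloc1s1 diamond is at -1.58 with all BLOC-1 subunits between -0.12 and 0.15, while circles are filled below 0 in the Ergic3, Tapbp and Erp44 rows.

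Between the stages the substrates went different ways. In both genotypes Bloc1s1 and Ergic3 rose and Hgsnat and Cd180 fell in GATA2-GMP relative to GMP, and Tapbp fell in KO. In KO 3 of 6 were called lower and 2 higher, where 40% and 38.6% of 12438 genes were, and in WT 2 lower and 2 higher, where 36.4% and 34.1% of 12251 genes were. The count of calls is thus near what all genes showed, and the KO and WT comparisons use the same libraries as the genotype comparisons above.

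Bloc1s1 had a log2 fold change of 2.56 in KO cells (SE 0.25, edgeR adjusted p = 1.65e-05) and 2.70 in WT cells (SE 0.36, adjusted p = 0.000306). Ergic3 had 1.22 in KO (SE 0.13, adjusted p = 2.07e-05) and 1.55 in WT (SE 0.18, adjusted p = 0.000123). In both genes every GATA2-GMP library was above every GMP library of its genotype, an arrangement that 39.6% of genes had in KO and 35.8% in WT. Hgsnat had -0.80 in KO (SE 0.19, adjusted p = 0.00362) and -0.55 in WT (SE 0.18, adjusted p = 0.0222), where the call was lost without any GMP WT library or without GATA2-GMP WT 1, at an adjusted p of 0.0561 to 0.0933. Cd180 had -3.91 in KO (SE 0.35, adjusted p = 9.79e-06) and -5.47 in WT (SE 0.58, adjusted p = 8.81e-05), the largest stage difference of the 6. Ern1 was also far lower in GATA2-GMP, by -4.38 in KO and -5.27 in WT.

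Tapbp and Erp44 depended on how libraries were scaled, and the cause was not tested. TMM factors over all 12 libraries were 0.688 to 0.872 in GATA2-GMP and 1.28 to 1.36 in GMP. The tests between stages used factors computed anew from their own 6 libraries. Tapbp was at -0.41 in KO (edgeR adjusted p = 0.0394; 0.0804 with RLE scaling, and up to 0.123 without any library other than GATA2-GMP KO 3) and at 0.17 in WT (adjusted p = 0.457), which library totals turned to -0.67 (adjusted p = 0.0129). Erp44 was at -0.047 in KO (adjusted p = 0.851) and 0.66 in WT (adjusted p = 0.0509; 0.000607 without GATA2-GMP WT 3), and library totals gave -0.75 (adjusted p = 0.00621) and -0.20 (adjusted p = 0.467). Library totals put the median of all genes at -0.73 in KO and -0.93 in WT, and the split of calls at 6681 lower and 3273 higher in KO and 6816 lower and 2501 higher in WT, against 4976 and 4801 in KO and 4462 and 4176 in WT with TMM. The directions of Bloc1s1, Ergic3, Hgsnat and Cd180 were the same under the 3 scalings.

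**Figure D5:**
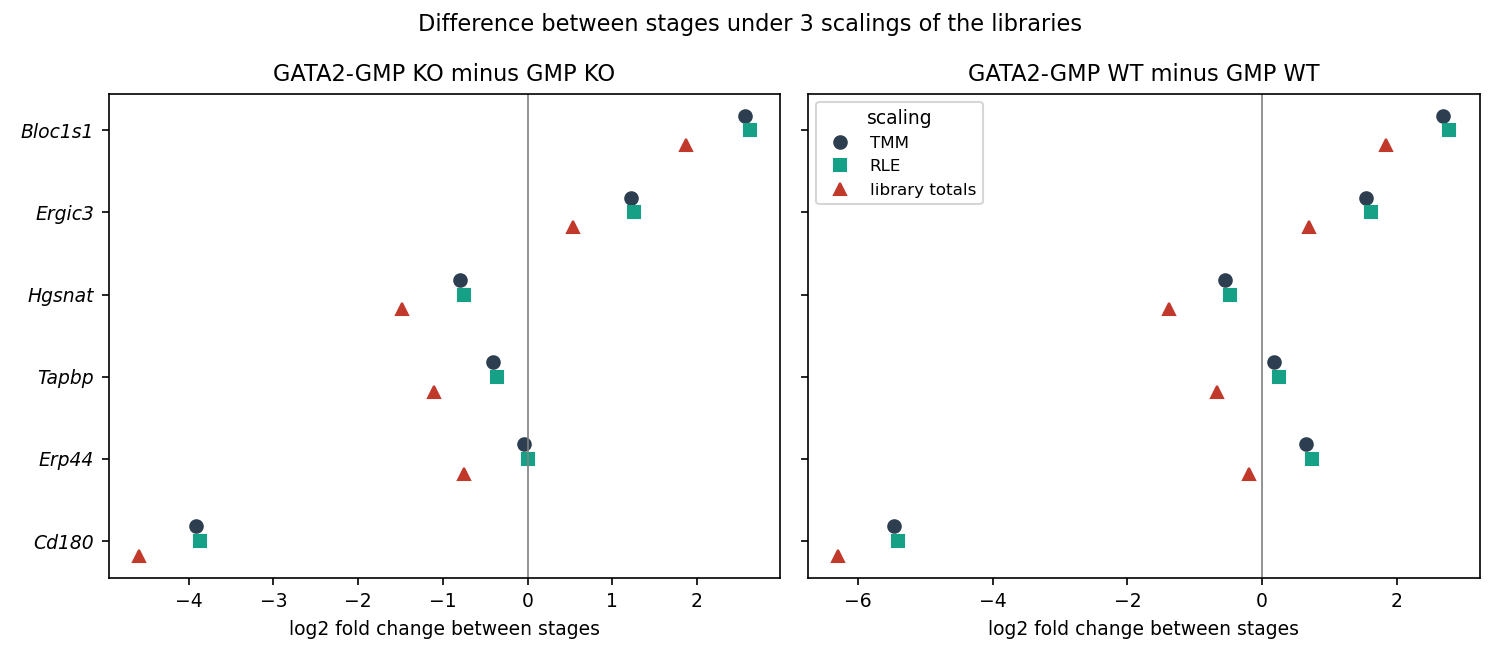
Log2 fold change between stages, GATA2-GMP minus GMP (x axis), of each substrate in KO (left) and WT (right) with library sizes scaled by TMM (circles), RLE (squares) or not at all (triangles); the x axes differ. Triangles lie left of the other symbols throughout, and cross 0 for Tapbp and Erp44 in WT.

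Levels can be set against each other between genes only per length, here as mean CPM per kilobase of the transcript with the longest coding sequence. Ergic3 had the highest level in all 4 groups, at 81.6 in GATA2-GMP KO, 165 in GATA2-GMP WT, 35.4 in GMP KO and 56.9 in GMP WT. In GMP KO Tapbp (19.2), Erp44 (12.8), Bloc1s1 (6.01), Cd180 (5.10) and Hgsnat (4.63) followed, and in GMP WT Tapbp (37.5), Erp44 (33.1), Bloc1s1 (14.6 to 20.8 over its libraries), Hgsnat (7.96) and Cd180 (7.29). In GMP KO the ranges of Bloc1s1 and Cd180 and of Cd180 and Hgsnat overlapped over the libraries. So did those of Tapbp and Erp44 and of Hgsnat and Cd180 in GMP WT. Ranges leave out that both genes of a pair come from the same libraries, and the order within libraries was not tested. In GATA2-GMP Bloc1s1 came second in both genotypes, at 35.7 in KO and 116 in WT. Tapbp (14.4) and Erp44 (12.3) followed in KO and Erp44 (51.8) and Tapbp (42.1) in WT, and each of these pairs overlapped, as did Bloc1s1 with Ergic3 and with Erp44 in WT. Hgsnat (2.64 in KO, 5.41 in WT) and Cd180 (0.335 in KO, 0.153 in WT) were lowest. With the merged length of all annotated exons, a setting chosen after seeing the data, Bloc1s1 was at 2.57 in GMP KO and 7.68 in GMP WT and came last of the 6 in GMP KO.

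The genes whose levels followed each substrate most closely were found by Pearson's r of log2 CPM over the 12 libraries after the mean of each stage was taken off; the libraries share genotype, depth and kit, so r is a description. For Bloc1s1 they were Vimp (r = 0.98), an ER membrane selenoprotein, Plcxd2 (0.97) and Erp44 (0.97). For Ergic3 they were the ER prolyl isomerase Fkbp11 (0.995), Erp44 (0.99) and Tex264 (0.98), an ER receptor for autophagy. For Erp44 they were Ergic3 (0.99), Fkbp11 (0.99) and Emilin1 (0.98). For Tapbp they were Emilin1 (0.99), an extracellular matrix glycoprotein, Tspan3 (0.99) and Tmem173 (0.99), which encodes STING of the ER. For Hgsnat they were Dnpep (0.98), an aspartyl aminopeptidase, the lysosomal peptidase Tpp1 (0.97) and Entpd7 (0.95). For Cd180 they were Tmem106a (0.97), Tlcd1 (0.97) and the transcription factor Meis1 (0.95). Among Bloc1s1, Ergic3, Hgsnat, Tapbp and Erp44 the pairs had r from 0.89 to 0.99, and with Cd180 r was from -0.41 to -0.18. Cd180 had 0 to 21 reads in each GATA2-GMP library, so all r values of Cd180 rest in part on counts near the floor.

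Exons of Bloc1s1 overlap those of Rdh5 and exons of Tapbp those of Zbtb22 on the same strand, and exons of Cd180 overlap those of Mast4 on the opposite strand, in the GENCODE annotation of mm9; the authors' annotation and strand setting are not given in the sources used here, so reads of an overlap cannot be assigned with certainty. None of these neighbours was called in either genotype comparison. In GMP their log2 fold changes were -0.077 (Rdh5, edgeR adjusted p = 0.926), 0.064 (Zbtb22, adjusted p = 0.729) and -0.34 (Mast4, adjusted p = 0.399). In GATA2-GMP they were 1.16 (Rdh5, adjusted p = 0.617), -0.86 (Zbtb22, adjusted p = 0.254) and 0.70 (Mast4, adjusted p = 0.698).

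Since XBP1 binds promoters, the 250 bases before the annotated start were searched on both strands for its motifs in RefSeq sequence of GRCm38.p6, where Bloc1s1, Ergic3, Tapbp, Erp44 and Cd180 matched by symbol. None held the ER stress element (ERSE), found in 0.113% of 32851 promoters of that length, its second form ERSE-II (0.0304%), the unfolded protein response element TGACGTGG (0.563%) or the shorter GCCACGT (2.02%), the last of which can overlap the others. The 5 letters CCACG, part of several of these, were in the Erp44 promoter and in 28.3% of all promoters. No match says only that these letters are not in this window.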

How the data were processed

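The authors deposited raw counts for each gene symbol in each library, not normalized, as the whole numbers and unequal sums show. The submitters' processing notes list HTSeq, DESeq, STAR 2.3.0 and SAMtools 0.1.14 with build mm9, and no role for any; annotation, strand setting and read filters are not given in the sources used here. Each table held 23366 genes and 5 counter rows (55.8 to 66.5% of records went to no gene), which were left out. Dates stood in place of 27 gene names in GMP libraries; 23 were restored and 4 with more than 1 reading (Marc1, Marc2, March1, March2) were left out. The most alike pair of libraries differed in 14460 genes.

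The test was edgeR's quasi-likelihood test (version 4.0.16, R 4.3.3; filterByExpr, TMM, glmQLFit with robust=TRUE, glmQLFTest) on the 6 libraries of each comparison, or on all 12 for the interaction, with p adjusted by Benjamini-Hochberg across every gene in the fit, called under 0.05. All 6 substrates passed the filter in each comparison. SE is the fold change over the square root of F, and 95% intervals use the t quantile. DESeq2 was version 1.42.0. Intervals and tests cover counting error and spread between libraries. For a check on simulated data, 200 genes were changed by 1.5 log2 units. The test recovered 100% of them in GMP, 74.5% in GATA2-GMP and 71% in the interaction. False calls numbered 16 in GMP, 15 in GATA2-GMP and 7 in the interaction. Only genes well above the floor were changed, so these rates do not cover Cd180 in GATA2-GMP or smaller changes. Before the change each simulated gene had the same mean level in all groups. The interaction rate thus does not cover genes that also differ between stages, as many do in these data.

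Named genes are the 6 substrates, lists of partner and marker genes, and the 3 genes most correlated with each substrate. Of the marker genes chosen, 1 was left out throughout and is not reported here. The substrates and lists were chosen with earlier results of these data known. Same-numbered GMP libraries deviated together (r = 0.26, 0.19 and 0.13 over genes). Replicate number may thus be a pairing in GMP, read from the data and not from the labels. The main tests compared group means without this pairing, and fits with replicate number as a block are given as alternatives. In GATA2-GMP r was -0.13, -0.23 and -0.41, and between stages it was between -0.037 and 0.037.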

Additional observations from a re-analysis of the deposited data

How the results depend on the processing

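Substrates called in GMP numbered 6 under all alternatives run except all 12 libraries in one fit, with 0 (17 genes in all, against 381). In GATA2-GMP 2 were called, against 4 with no filter, 5 with DESeq2, 5 with all 12 libraries in one fit and 0 with the replicate block, where the numbers do not pair the libraries; leaving out 1 library gave 0 to 4. Genes called in all in GMP numbered 964 with the replicate block and 209 to 398 with 1 library left out. In GATA2-GMP 44 were called, against 294 with no filter, 504 with DESeq2, 3 with the replicate block, 1461 with all 12 libraries in one fit and 0 to 525 with 1 library left out, the 525 without GATA2-GMP WT 3. The interaction called no substrate under any of 18 alternatives and 11 genes in all, against 17 with RLE scaling, 40 with no filter, 18 with a filter of 1 CPM in 3 libraries, 738 with DESeq2, 0 with the replicate block and 0 to 1179 with 1 library left out (1179 without GATA2-GMP WT 3). The interaction of Bloc1s1 changed sign with library totals (0.035) and ran from -0.44 to 0.23 with 1 library left out; that of Xbp1 ran from -0.44 to 0.029. Between stages, library totals turned Tapbp to -0.67 and Erp44 to -0.20 in WT, and Erp44 in KO was 0.0069 with RLE scaling and -0.34 to 0.15 with 1 library left out. Stage calls numbered 3 to 5 in WT (4 in the main analysis) and 4 to 6 in KO (5). The replicate block lost the stage calls of Hgsnat in WT (adjusted p = 0.0547) and Tapbp in KO (0.0575). The cause of these changes was not tested. Depth limits Cd180 in GATA2-GMP, at 41 reads in KO and 20 in WT.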
